A study of Mus with 12 samples.

Results

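The lipoxygenase and leukotriene enzyme genes of the mouse uterus were 9 in number: the 6 lipoxygenases Alox15, Alox12e, Alox12, Alox8, Alox12b and Alox5, and Alox5ap, Lta4h and Ltc4s, which act with or after Alox5. They were taken from 2 deposited gene tables as the rows that carried 1 of these names and an Ensembl transcript, and all 9 had such a row among the 87235 rows of the first table and the 40787 rows of the second. The genes were selected on their function and with their FPKM and fold changes between the days compared here already known. The values of these comparisons are therefore a description, given with their spread, and whether a gene met a criterion is stated as part of that description and not as a test of it.

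Uteri of pregnant ICR mice, an outbred strain, were used, and the series' text gives their age as 8 weeks. There were 4 groups of 3 mice with 1 library for each mouse, named by the day of pregnancy, and the labels name no treatment and no engineered allele in any of them. E0.5 was compared with E4.5, the days before and around attachment of the embryo, in the first table (implantation stage), and E18.5 with E15.5, the days near and before labor, in the second (labor stage).

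Lipoxygenases add oxygen to arachidonic acid and related fatty acids that phospholipases release from membranes. Alox5, helped by the membrane protein Alox5ap, makes leukotriene A4, which Lta4h hydrolyses to leukotriene B4, an attractant of leukocytes, and which Ltc4s joins to glutathione to give leukotriene C4, the first of the cysteinyl leukotrienes that contract smooth muscle and make vessels leak. The other lipoxygenases make hydroperoxides in macrophages, platelets and epithelia, and are best known from blood cells and skin.

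The levels are FPKM, fragments scaled by transcript length and by the mapped fragments of the library, so that genes can be compared per length within a library. In the first table, the total count of a library lay between 58020989 and 70906881. The second table was used as FPKM alone. The paper gives an approximate amount of data per uterus sample, and the depth of each library of this table was not used here. The summed FPKM of all rows was 235841 to 319751 in the libraries of the first table and 470090 to 561126 in those of the second, so levels are not set against each other across the tables. A gene was tested when its mean over the 6 libraries of its table was at least 0.1 FPKM. A gene met the criterion when its absolute log2 fold change was at least 1 with an unadjusted p under 0.05, by edgeR on the counts of the first table and by limma on log2(FPKM + 0.1) in the second. All fold changes are E0.5 relative to E4.5, or E18.5 relative to E15.5.

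A pair of libraries stood apart from the rest of their groups. E4.5 replicate 3 held 994 FPKM of 7 summed ovary markers, against 4.42 to 6.50 FPKM in the other 5 libraries of its table, and 151.5 FPKM of 5 summed uterus markers, against 497 to 777 FPKM. Its 3 summed oviduct markers, at 20.8 FPKM, were also above the 4.53 to 12.1 FPKM of the others. E15.5 replicate 1 held 52.1 FPKM of 5 summed trophoblast markers and 27.96 FPKM of 6 summed neutrophil markers, where the other E15.5 libraries reached 5.13 and 3.16 FPKM. Sums are taken over the listed markers that have a row of their own in both tables. Values without these libraries are given beside the values and calls of the 9 genes that they change, and beside the marker counts that they change. In bulk tissue, fewer cells of a type and less RNA per cell cannot be told apart.

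At E0.5, 6 of the 8 tested genes met the criterion and all 6 were higher than at E4.5: Alox15, Alox12e, Alox8, Alox5, Alox5ap and Ltc4s. Of all rows tested in that table, 12.2% met it, 6.37% higher and 5.82% lower. Alox8 is among the 6 although it passed the filter on low values only through its E0.5 libraries, which ties its call to its direction, and 5 of the other 7 met the criterion. With a Benjamini-Hochberg adjusted p under 0.05, by edgeR on all libraries, Alox5ap met it and 1.2% of all rows did. The genes past the adjusted threshold depended on the fit: Ltc4s joined Alox5ap without E4.5 replicate 3, Alox12e, Alox5 and Ltc4s joined it with DESeq2, and Alox5ap itself was no longer past it in the 5 fits that left out 1 of the other libraries. The median log2 fold change of the 8, Alox8 included, was 1.45, beside -0.01 over all rows. At E18.5, 2 of the 7 tested genes met the criterion, Alox15 and Alox12e, both higher than at E15.5, beside 6.05% of all rows (3.11% higher and 2.93% lower). None of the 7 met it with a limma adjusted p under 0.05, which 0.0259% of all rows did, and without E15.5 replicate 1 only Alox12e met it, beside 5.01% of all rows. Alox12e passed the filter only through its E18.5 libraries, which ties its call to its direction, and 1 of the other 6 met the criterion with all libraries. The median of the 7, Alox12e included, was 0.63, beside 0.02 over all rows. Without E4.5 replicate 3, 6 genes again met the criterion at E0.5, beside 14.1% of all rows, but they were not the same 6: Alox5 (0.98) was no longer among them and Alox12 (-1.001), lower at E0.5, was.

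**Figure D1:**
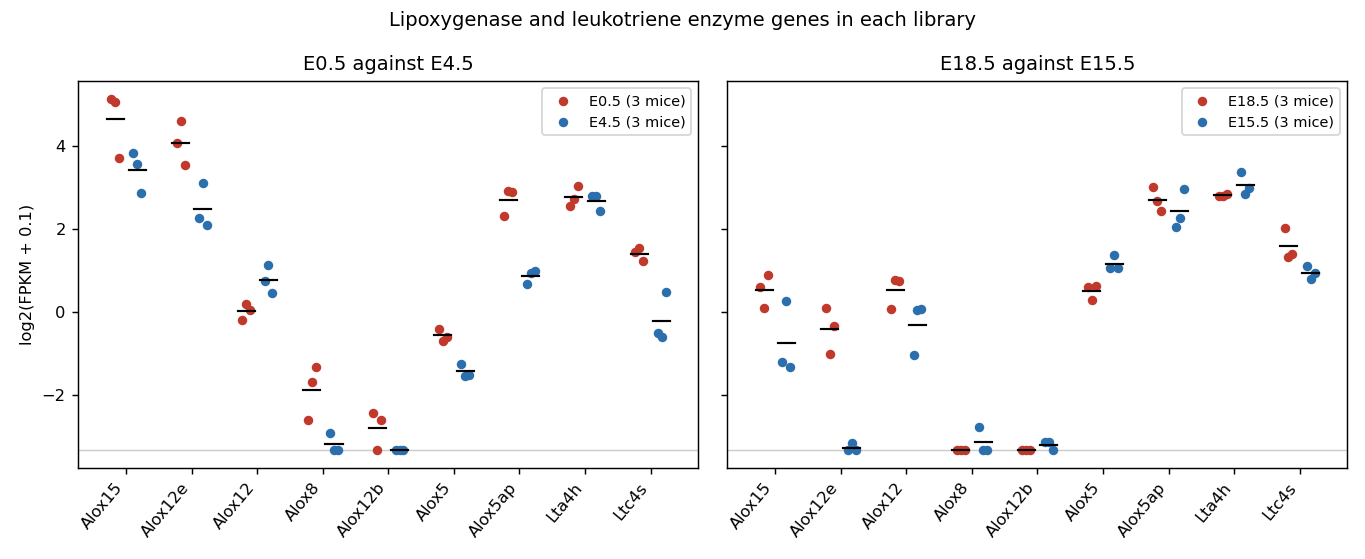
Level of each of the 9 genes as log2(FPKM + 0.1) in every library, with 1 point per mouse and a bar at the mean of the 3 points of a group; the grey line marks a level of 0 FPKM. The left panel holds E0.5 (red) and E4.5 (blue), the right panel E18.5 (red) and E15.5 (blue), and the panels come from tables normalized separately. Alox5ap, Alox12e, Ltc4s, Alox5 and Alox8 at E0.5 sit above all E4.5 points, and Alox12e at E15.5 sits on or just above the line of 0.

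Alox15, a lipoxygenase of macrophages and epithelia, was the most abundant of the 9 genes at both days of the first table. Its level was 35.2, 33.5 and 12.9 FPKM in E0.5 replicates 1 to 3, and 14.2, 11.8 and 7.23 FPKM in E4.5 replicates 1 to 3. E0.5 replicate 3 lay inside the E4.5 range, so the groups overlapped although the mean was 2.45-fold higher at E0.5 (log2 fold change 1.29, standard error 0.44). It met the criterion with all libraries and without E4.5 replicate 3 (1.04), but no longer did without E0.5 replicate 1, E0.5 replicate 2 or E4.5 replicate 2. At the labor stage, Alox15 was at 1.42, 0.978 and 1.75 FPKM in the E18.5 libraries and at 0.335, 1.10 and 0.297 FPKM in the E15.5 libraries. E15.5 replicate 2 lay above E18.5 replicate 2, and the log2 fold change was 1.29 (standard error 0.47). The criterion was not met without E15.5 replicate 1 (1.07), and neither without E15.5 replicate 3 (1.002), E18.5 replicate 1 (1.25) or E18.5 replicate 3 (1.11).

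Alox12e, the epidermal lipoxygenase next to Alox15 on the chromosome, was the second most abundant gene at E0.5. It was at 16.7, 24.0 and 11.6 FPKM in the E0.5 libraries and at 4.73, 8.51 and 4.19 FPKM in the E4.5 libraries. Every E0.5 library was above every E4.5 library, with a log2 fold change of 1.60 (standard error 0.37), and of 1.39 without E4.5 replicate 3. Among the later libraries it was at 0.967, 0.400 and 0.690 FPKM at E18.5, while the E15.5 libraries were at 0, 0.0122 and 0 FPKM. Alox12e was thus at or near 0 in each E15.5 mouse and measurable in each E18.5 mouse. The log2 fold change of 2.85 (standard error 0.38) is on the log2(FPKM + 0.1) scale, where the added 0.1 limits the size of a change from 0. It was 2.82 without E15.5 replicate 1, 5.65 with a pseudocount of 0.01, and 0.73 with a pseudocount of 1, with which the fold minimum was not reached.

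Alox12, the lipoxygenase of platelets, differed from its neighbours in direction in the first table. It was at 0.782, 1.04 and 0.931 FPKM at E0.5 and at 1.58, 2.09 and 1.27 FPKM at E4.5. All E0.5 libraries lay below all E4.5 libraries, with a log2 fold change of -0.83 (standard error 0.27) that did not reach the fold minimum. Without E4.5 replicate 3 the value was -1.001 and the criterion was met. At the labor stage Alox12 was at 0.9501, 1.60 and 1.59 FPKM at E18.5 and at 0.391, 0.929 and 0.958 FPKM at E15.5. E18.5 replicate 1 was within the E15.5 range, and the log2 fold change of 0.83 (standard error 0.37) did not meet the criterion. E15.5 replicate 1 was the lowest of the 6 libraries, and without it the value was 0.47. Without E18.5 replicate 1 the value was 1.06, and the criterion was met.

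Alox8 and Alox12b, lipoxygenases of the skin, were the least abundant genes in 3 of the 4 groups. Alox8 was at 0.0662, 0.210 and 0.300 FPKM at E0.5, from 21, 56 and 93 counts, and at 0.0329, 0 and 0 FPKM at E4.5, from 10, 0 and 0 counts. The groups did not overlap, and the log2 fold change of 4.03 had a standard error of 1.58. It was 3.47 without E4.5 replicate 3. Without E4.5 replicate 1, the E4.5 library that held counts, the fitted value was 8.85, a size that depends on the prior count because the remaining E4.5 libraries hold 0. Its mean over the 6 libraries, 0.101 FPKM, was just inside the filter of 0.1, and it no longer met the criterion without E0.5 replicate 2, without E0.5 replicate 3 or without E4.5 replicate 2, nor with limma on log2(FPKM + 0.1), where the value was 1.32. Alox12b was below the filter, with 18, 0 and 14 counts at E0.5 and 0 in each E4.5 library. Against a floor of 3 counts over the group, the E0.5 group was at least 10.8-fold higher, although 1 of the 3 E0.5 mice also had 0 counts. Near labor both genes were below the filter. They were listed at 0 in all E18.5 libraries, Alox8 reached 0.0473 FPKM in E15.5 replicate 1 alone, and Alox12b reached at most 0.0143 FPKM at E15.5.

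Of these lipoxygenases, 5 lie on chromosome 11, and the coordinates of their rows overlapped the RefSeq genes of GRCm38, the build named mm10 in the submitters' notes. Alox15 spans chr11:70344152-70352031, Alox12e spans chr11:70315610-70322628 and Alox12 spans chr11:70241457-70255355, all on the minus strand, so that they follow each other in the direction of transcription with gaps of 21.5 kb and 60.3 kb. Alox12b (chr11:69156989-69169792, plus strand) and Alox8 (chr11:69183932-69197843, minus strand) are 14.1 kb apart, and 1044 kb separate Alox8 from Alox12. Each position given is that of the whole gene row, exons and introns together. Ltc4s is also on chromosome 11 (chr11:50236461-50238616, minus strand). Alox5 is on chromosome 6 (chr6:116410077-116461178, minus strand), Alox5ap on chromosome 5 (chr5:149264767-149288153, plus strand) and Lta4h on chromosome 10 (chr10:93453411-93484874, plus strand).

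Within the stretch of 111 kb that holds Alox15, Alox12e and Alox12, the first 2 were higher at E0.5 and Alox12 was lower. Between the genes the first table has 4 rows without an Ensembl transcript, and 1 of them, which lies 311 bases past the 3′ end of the Alox12e row at chr11:70314998-70315298, bears the name Alox12e. It met the criterion with all libraries (3.29) but not without E4.5 replicate 3 (2.72). The other 3 rows have no gene name and did not meet the criterion with all libraries, and 1 of them, nearest to Alox12, did without that library (3.65 with all, 7.16 without). The size of 7.16 depends on the prior count because the remaining E4.5 libraries hold 0 there. This row passed the filter only through its E0.5 libraries, which ties its call to its direction. The ratio of Alox15 to Alox12e, both in FPKM, was 2.10, 1.39 and 1.12 at E0.5 and 2.99, 1.39 and 1.73 at E4.5, and these ranges overlapped. At E18.5 the ratio was 1.47, 2.44 and 2.54, while 2 of the 3 E15.5 libraries had no Alox12e to form it.

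**Figure D2:**
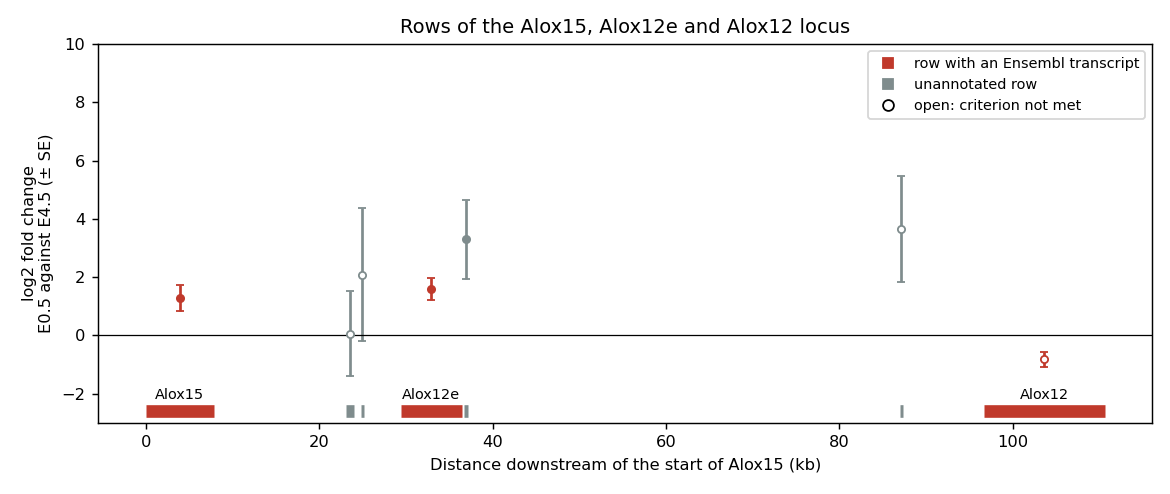
Log2 fold change, E0.5 against E4.5, with its standard error, of each row of the first table in the stretch from Alox15 to Alox12, against the distance in kb downstream of the start of Alox15. Bars at the bottom show the position of each row along the horizontal axis, and the shortest rows are drawn wider than they are. Alox15 (1.29) and Alox12e (1.60) lie above 0 and Alox12 (-0.83) below it, and the 4 unannotated rows have wide errors.

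Among the leukotriene enzymes, Alox5, which carries out the first step, was low in the first table and higher at E0.5 than at E4.5. Its level was 0.660, 0.521 and 0.557 FPKM in the E0.5 libraries and 0.324, 0.247 and 0.252 FPKM in those of E4.5, from 84 to 233 counts per library. The groups did not overlap, and the log2 fold change was 1.07 (standard error 0.31), close to the fold minimum of 1. Without E4.5 replicate 3 it was 0.98, and it was 0.99 without E0.5 replicate 1 or E4.5 replicate 2, each below the minimum. With limma on log2(FPKM + 0.1) it was 0.86, and the criterion was not met. Later in pregnancy the order of the days was the opposite: 1.43, 1.12 and 1.44 FPKM at E18.5 and 1.98, 2.49 and 1.97 FPKM at E15.5. All E18.5 libraries were below all E15.5 libraries, with a log2 fold change of -0.65 (standard error 0.19) that did not reach the fold minimum. It was -0.70 without E15.5 replicate 1. The difference between the 2 comparisons was not tested.

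Alox5ap, which presents arachidonic acid to Alox5, had the clearest difference of the 9 genes in the first table relative to its error. It was at 4.83, 7.42 and 7.32 FPKM at E0.5 and at 1.49, 1.82 and 1.87 FPKM at E4.5. The lowest E0.5 library was above the highest E4.5 library, and the log2 fold change was 1.93 (standard error 0.26), or 3.81-fold. Leaving out any 1 library gave values from 1.82 to 2.12. Near labor, Alox5ap was at 7.98, 6.23 and 5.33 FPKM at E18.5 and at 4.02, 4.69 and 7.74 FPKM at E15.5. These groups overlapped through E15.5 replicate 3, and the log2 fold change was 0.28 (standard error 0.27), or 0.09 without E15.5 replicate 1.

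Ltc4s, the synthase of the cysteinyl leukotrienes, was at 2.60, 2.80 and 2.26 FPKM at E0.5 and at 0.611, 0.557 and 1.301 FPKM at E4.5. The groups did not overlap, and E4.5 replicate 3 was the E4.5 library nearest to E0.5. The log2 fold change was 1.63 (standard error 0.40), and 2.06 without that library. Late in pregnancy Ltc4s was at 3.98, 2.40 and 2.53 FPKM at E18.5 and at 2.05, 1.65 and 1.82 FPKM at E15.5. Again no libraries overlapped, but the log2 fold change of 0.63 (standard error 0.23) did not reach the fold minimum. It was 0.71 without E15.5 replicate 1.

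Lta4h, the hydrolase that makes leukotriene B4 and is present in most cell types, showed small differences in both tables. It was at 5.75, 6.49 and 8.06 FPKM at E0.5 and at 6.79, 6.89 and 5.28 FPKM at E4.5, with a log2 fold change of 0.11 (standard error 0.21) whose sign turned without E4.5 replicate 3 (-0.03). At E18.5 it was at 6.81, 6.86 and 7.10 FPKM and at E15.5 at 10.3, 7.06 and 7.82 FPKM, with a log2 fold change of -0.26 (standard error 0.16). Without E15.5 replicate 1, the highest of these libraries, it was -0.10. The ranges overlapped in both tables. The ratio of Ltc4s to Lta4h, the enzymes that share leukotriene A4 as substrate, was 0.453, 0.432 and 0.280 at E0.5 and 0.0899, 0.0809 and 0.247 at E4.5. It was 0.585, 0.351 and 0.357 at E18.5 and 0.199, 0.233 and 0.233 at E15.5. In both tables the ratio was higher in every library of the first-named day, although in the first table E0.5 replicate 3 and E4.5 replicate 3 lay close together.

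**Figure D3:**
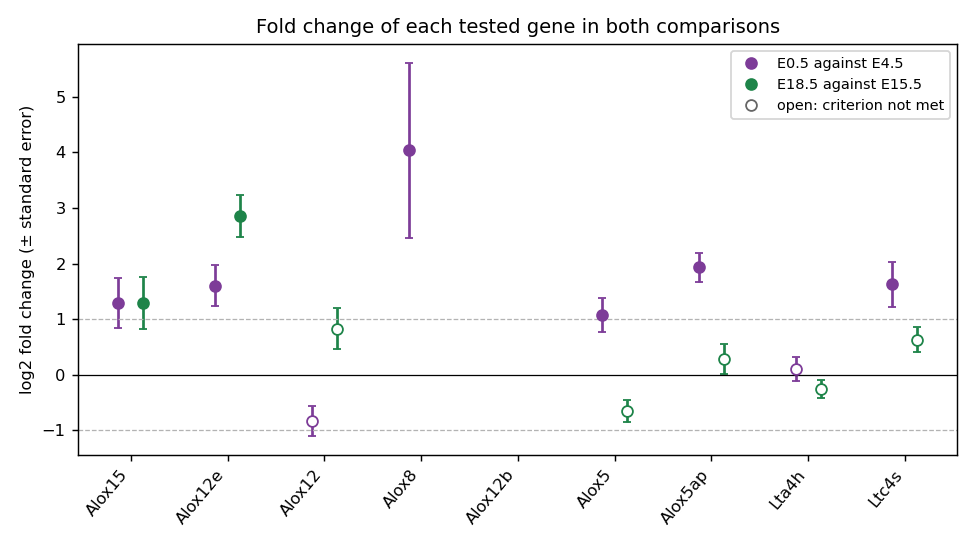
Log2 fold change with its standard error of each tested gene, E0.5 against E4.5 (purple) and E18.5 against E15.5 (green); dashed lines mark a change of 1 in either direction and open symbols did not meet the criterion. Alox15 and Alox12e are above 1 in both comparisons, while Alox5 (1.07 and -0.65) and Alox12 (-0.83 and 0.83) lie on opposite sides of 0; Alox12b was not tested, and Alox8 was tested in 1 comparison.

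Counting overlap alone, 5 of the 8 tested genes were higher in every E0.5 library than in every E4.5 library, where 12.8% of all rows were, and 1, Alox12, was lower, as were 12.5% of all rows. The 5 include Alox8, and 4 of the other 7 were higher in every E0.5 library. At the labor stage, Alox12e and Ltc4s were higher in every E18.5 library, where 10.9% of all rows were, and Alox5 was lower, as were 8.96% of all rows. Alox12e passed the filter through E18.5 alone, which leaves Ltc4s, 1 of the other 6. The comparisons share no library.

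The order of the mean levels differed between the tables. At E0.5 it ran from Alox15 (27.2 ± 12.4 FPKM, SD, n = 3) and Alox12e (17.4 ± 6.25) to Lta4h (6.77 ± 1.18), Alox5ap (6.52 ± 1.47), Ltc4s (2.55 ± 0.274), Alox12 (0.918 ± 0.130), Alox5 (0.579 ± 0.0719), Alox8 (0.192 ± 0.118) and Alox12b (0.0498 ± 0.0445). The ranges of Alox15 and Alox12e overlapped, as did those of Lta4h and Alox5ap and those of Alox8 and Alox12b, and the other neighbours did not. At E4.5 Alox15 (11.1 ± 3.52 FPKM) still came first, ahead of Lta4h (6.32 ± 0.904) and Alox12e (5.81 ± 2.35), whose ranges overlapped, and Alox5ap (1.73 ± 0.208), Alox12 (1.65 ± 0.411) and Ltc4s (0.823 ± 0.415) followed, each overlapping the next. Alox5 (0.274 ± 0.0431 FPKM) and Alox8 (0.0110 ± 0.0190) were lower, and Alox12b was at 0.

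On the later days Lta4h and Alox5ap came first, and their ranges overlapped at both. At E18.5 Lta4h was at 6.92 ± 0.156 FPKM (SD, n = 3) and Alox5ap at 6.52 ± 1.34. Ltc4s (2.97 ± 0.877 FPKM) followed, above Alox15 (1.38 ± 0.387), Alox12 (1.38 ± 0.372) and Alox5 (1.33 ± 0.183), which could not be separated by their ranges, and Alox12e (0.686 ± 0.283) was below them. At E15.5 the order was Lta4h (8.39 ± 1.69 FPKM), Alox5ap (5.49 ± 1.98), Alox5 (2.15 ± 0.299), Ltc4s (1.84 ± 0.204), Alox12 (0.759 ± 0.319) and Alox15 (0.578 ± 0.455). Alox5 and Ltc4s overlapped there, as did Alox12 and Alox15, and the remaining genes were under 0.02 FPKM on average.

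The rows whose log2(FPKM + 0.1) followed Alox15 most closely over the 6 libraries of the first table, among 10443 rows compared, were Npr3 (Pearson r 0.99), Pak1ip1, Oard1, Crtc2 and Mfap3l. Npr3, the clearance receptor of natriuretic peptides, was at 5.43, 5.29 and 2.20 FPKM at E0.5 and at 1.95, 1.71 and 0.981 FPKM at E4.5, with E0.5 replicate 3 low as for Alox15. For the labor stage the closest of 10269 rows were Gata2 (r 0.98), a transcription factor of the uterus, Eapp, Snapc2, Rhbdf2 and Slc15a2. Their spans also differed, from 3.26 to 4.10 FPKM for Eapp to 0.0767 to 3.05 FPKM for Slc15a2. None of these genes was among the closest in both tables. The correlations are descriptions over 6 libraries processed together in 1 table, and no p-value is given for them.

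The markers of the cells that use these enzymes moved with several of the values. Counts of markers that met the criterion stand beside the shares of all rows, 6.37% higher and 5.82% lower at E0.5, and 3.11% higher and 2.93% lower at E18.5. The 7 summed uterine epithelium markers were at 248 to 303 FPKM at E0.5 and 90.7 to 208 FPKM at E4.5, and 3 of the 7 met the criterion, all higher, among them the keratins Krt8 and Krt19, the 2 that remained without E4.5 replicate 3. At E18.5 they were at 618 to 848 FPKM and at E15.5 at 205 to 433 FPKM, with 3 of the 7 again higher, or Krt8 and Krt19 without E15.5 replicate 1. None of the 7 was listed at 0. Of 4 trophoblast markers tested on the later days, 1, Tpbpa, met the criterion, and 3 did without E15.5 replicate 1. The sum of 5 others was at 21.4 to 32.5 FPKM at E18.5 and at 2.78, 5.13 and 52.1 FPKM at E15.5, overlapping, and Tpbpa was at 42.3 ± 10.4 FPKM against 3.09 ± 2.70 (SD, n = 3), whereas at implantation Tpbpa and 3 more of the 7 listed were at 0. Ovary markers summed to 7.44 to 46.0 FPKM at E18.5 and 4.84 to 6.76 FPKM at E15.5. The part of these cells in the values of Alox15 and Alox12e was not tested. Relative to the epithelial sum, Alox15 was at 101 ± 50.6 per 1000 FPKM of markers at E0.5 and 77.6 ± 19.9 at E4.5 (SD, n = 3), and at 2.03 ± 0.693 at E18.5 and 1.96 ± 1.47 at E15.5. Neither ratio separated the groups.

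For Alox12e the same ratio was 64.8 ± 29.8 at E0.5 and 39.8 ± 7.06 at E4.5, and these ranges overlapped as well. At E18.5 it was 0.968 ± 0.277, and at E15.5 it was 0, 0.0393 and 0 in the 3 libraries. Since Alox12e was at or near 0 at E15.5, its ratio there is near 0 over any sum of markers, and the part of the epithelium in the difference was not tested.

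Macrophage markers were higher as a sum at E0.5, as were Alox5, Alox5ap and Ltc4s. The 7 summed markers were at 73.9 to 106 FPKM at E0.5 and 34.7 to 38.2 FPKM at E4.5. Of the 8 on the list, 4 met the criterion, all higher, beside 6.37% of all rows. Among them were Csf1r (log2 fold change 1.88, edgeR adjusted p = 0.0449) and Cd14 (2.003, adjusted p = 0.0779). At E18.5 the sum was 182.8 to 252 FPKM and at E15.5 167 to 201 FPKM, and 0 of the 8 met the criterion. No macrophage marker was listed at 0.

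Relative to the macrophage sum, Alox5 was at 6.38 ± 2.21 per 1000 FPKM of markers at E0.5 and 7.41 ± 1.0006 at E4.5 (SD, n = 3), a log2 ratio of -0.22, so that its higher level at E0.5 was not seen on this scale. Alox5ap stayed higher in every E0.5 library, at 68.4 ± 2.58 against 46.9 ± 6.89. Ltc4s was at 35.2, 26.4 and 21.5 at E0.5 and at 16.1, 16.1 and 34.1 at E4.5, and overlapped through E4.5 replicate 3 alone. Its log2 ratio was 0.33, and 0.79 without that library. At the labor stage, Alox5 relative to the same markers was lower in every E18.5 library, at 6.32 ± 0.747 against 11.9 ± 2.69. Ltc4s was higher in every E18.5 library, at 13.8 ± 1.75 against 10.1 ± 1.16, and Alox5ap overlapped, at 30.7 ± 3.95 against 29.6 ± 8.27. These ratios were added after the values had been seen, and the part of macrophages or epithelium in the differences was not tested.

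**Figure D4:**
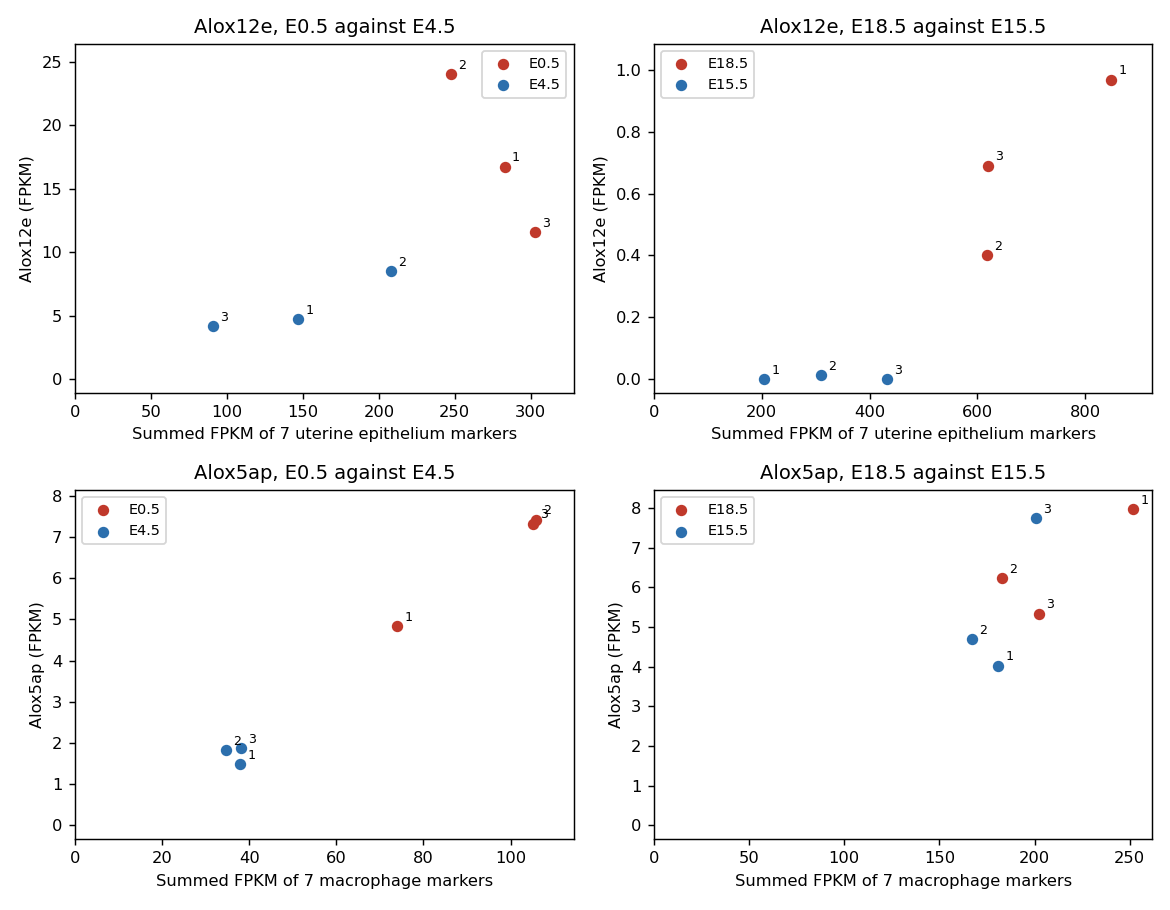
FPKM of Alox12e against the summed FPKM of 7 uterine epithelium markers (top) and of Alox5ap against 7 macrophage markers (bottom), in each library of the first table (left) and the second (right); the number beside a point is its replicate. Alox12e at E15.5 is at or near 0 over marker sums from 205 to 433 FPKM, and the E0.5 points of Alox5ap lie apart from the E4.5 points on both axes.

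Markers of other blood cells were read in the same way, beside the same shares of all rows. The 6 summed neutrophil markers were at 0.559 to 2.28 FPKM at E0.5 and 0.220 to 1.40 FPKM at E4.5, with S100a9 and Retnlg at 0 in all 6 libraries, and 2 of the 8 on the list, Csf3r and Ly6g, met the criterion, both higher at E0.5, of which Ly6g did without E4.5 replicate 3. The 4 summed eosinophil markers reached at most 0.692 FPKM on these days, with Prg3 at 0, and the 1 tested, Il5ra, met the criterion without E4.5 replicate 3 only, lower at E0.5. The 7 summed mast cell markers were at 6.28 to 19.6 FPKM at E0.5 and 5.84 to 12.2 FPKM at E4.5, and 0 of the 7 met the criterion, although the 5 tested all had positive values and Mcpt4 met it without E4.5 replicate 3. The 5 summed platelet markers were at 4.36 to 5.75 FPKM at E0.5 and 1.14 to 3.86 FPKM at E4.5, higher in the E0.5 libraries, where Alox12, the platelet lipoxygenase, was lower, and 1 of 5 tested met the criterion, or 2 without E4.5 replicate 3. On the later days, platelet markers were at 14.5 to 22.7 FPKM at E18.5 and 14.8 to 19.4 FPKM at E15.5, and 2 of 5 tested met the criterion, Gp1bb (1.02) higher and Gp9 (-1.11) lower, of which Gp9 did without E15.5 replicate 1. Neutrophil markers were at 2.07 to 6.14 FPKM at E18.5 and 2.24 to 27.96 FPKM at E15.5, with 1 of 5 tested, Cxcr2, higher at E18.5. Eosinophil markers were at 3.59 to 5.03 FPKM at E18.5 and 2.80 to 5.19 FPKM at E15.5, and the 1 tested did not meet the criterion. Mast cell markers were at 17.7 to 29.4 FPKM at E18.5 and 9.83 to 25.3 FPKM at E15.5, with 3 of the 7 higher at E18.5 and 1, Hdc, lower. The 8 markers of stratified epithelium, where Alox12b, Alox8 and Alox12e are best known, summed to 0.891 to 9.27 FPKM at E0.5 and 1.18 to 4.27 FPKM at E4.5. At E18.5 their sum of 1.87 to 3.04 FPKM was below the 5.41 to 13.3 FPKM of E15.5, an order carried by Krtdap, the 1 of 4 tested markers that met the criterion (log2 fold change -2.49), while the other 3 had values of 0 or above and overlapping groups.

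A further 36 genes around these enzymes, in 7 roles from substrate release to receptors, were read from the same fits. Of these, 31 were tested at the implantation stage and 7 met the criterion, 6 higher and 1 lower at E0.5, where 12.2% of all rows met it, 6.37% higher and 5.82% lower. The 1 lower call, Cyp4f18, rested on E4.5 replicate 3 alone, and without that library the 1 lower call was Pla2g10. The 6 higher calls include Ltb4r2. Ltb4r2 and Pla2g10 each passed the filter on low values only through the day on which they were higher, which ties their calls to their direction. The median log2 fold change of the 31 was 0.03, near the -0.01 of all rows. At the labor stage, 34 were found and 27 tested, and 1 met the criterion, lower at E18.5, where 6.05% of all rows met it. The median there was -0.10, beside 0.02 over all rows.

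In substrate release, 1 of 5 tested genes met the criterion at E0.5, and without E4.5 replicate 3 Pla2g10, a secreted phospholipase, met it as well, lower at E0.5 (log2 fold change -2.44, and -1.93 with all libraries). With 9, 15 and 8 counts at E0.5, Pla2g10 passed the filter on low values only through its E4.5 libraries, which ties its call to its direction. Pla2g4a, the cytosolic phospholipase that frees arachidonic acid, was at 8.99, 7.78 and 10.1 FPKM at E0.5 and at 3.30, 5.19 and 4.23 FPKM at E4.5, which gave a log2 difference of 1.09 (standard error 0.20, edgeR adjusted p = 0.0596, or 0.0390 without E4.5 replicate 3). Near labor its log2 fold change was 0.17 (standard error 0.13), with overlapping groups, and 0 of 4 tested genes of this role met the criterion. Aloxe3, the remaining epidermal lipoxygenase, was below the filter in both tables, at up to 0.108 FPKM in the first and 0.266 FPKM in the second.

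The pathway genes past the adjusted threshold with all libraries, by edgeR, were 2 enzymes that act after Ltc4s, and without E4.5 replicate 3 Pla2g4a, Cysltr1 and Il13ra1 passed it too. Ggt5, which removes glutamate from leukotriene C4, was at 10.7, 10.1 and 16.2 FPKM at E0.5 and at 3.30, 1.90 and 2.42 FPKM at E4.5, which gave a log2 difference of 2.27 (standard error 0.31, edgeR adjusted p = 0.0326, or 0.0167 without E4.5 replicate 3). Dpep1, a dipeptidase that trims the product further, was at 6.18, 5.86 and 13.6 FPKM at E0.5 and at 1.58, 1.32 and 1.56 FPKM at E4.5, which gave a log2 difference of 2.53 (standard error 0.38, edgeR adjusted p = 0.0399, or 0.0227 without E4.5 replicate 3). Both genes were higher in every E0.5 library than in every E4.5 library, but leaving out any 1 of the other 5 libraries raised the edgeR adjusted p to between 0.0814 and 0.136 for Ggt5 and between 0.0856 and 0.136 for Dpep1. The other 5 tested genes of this role did not meet the criterion. Near labor 0 of 6 did, with Ggt5 at 0.84 (standard error 0.35) and Dpep1 at -0.05 (standard error 0.20). Without E15.5 replicate 1 these values were 0.55 and 0.14.

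Of the 8 receptors tested in the first table, 2 met the criterion, both higher at E0.5 and both at low levels. Of these, Ltb4r2 passed the filter on low values only through its E0.5 libraries, which ties its call to its direction. Ltb4r2, the low-affinity receptor of leukotriene B4, was at 0.294, 0.272 and 0.519 FPKM at E0.5 and at 0.0335, 0.128 and 0.0425 FPKM at E4.5, which gave a log2 difference of 2.40 (standard error 0.64, edgeR adjusted p = 0.130, or 0.131 without E4.5 replicate 3). Cysltr1, a receptor of cysteinyl leukotrienes, was at 0.361, 0.361 and 0.419 FPKM at E0.5 and at 0.108, 0.110 and 0.180 FPKM at E4.5, which gave a log2 difference of 1.53 (standard error 0.35, edgeR adjusted p = 0.0965, or 0.0389 without E4.5 replicate 3). Ltb4r1, the high-affinity receptor, was also higher in every E0.5 library, at 0.513, 0.692 and 0.555 FPKM against 0.245, 0.454 and 0.135 FPKM, but did not meet the criterion. With DESeq2 both Ltb4r2 (adjusted p = 0.00914) and Cysltr1 (adjusted p = 0.00384) passed the adjusted threshold, while with limma on log2(FPKM + 0.1) neither met the criterion, at 1.46 and 1.06.

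Among the later days, all 7 tested receptors had a log2 fold change below 0, as did 14758 of all 30928 rows, and 1 met the criterion. Cysltr2, the other cysteinyl leukotriene receptor, was at 0.518, 0.811 and 0.671 FPKM at E18.5 and at 6.35, 2.32 and 1.36 FPKM at E15.5, which gave a log2 difference of -1.90 (standard error 0.52, limma adjusted p = 0.232). E15.5 replicate 1 had the highest value, and without it the log2 fold change was -1.31. Cysltr1 did not differ beyond its error there, with a value of -0.001 (standard error 0.20) that was 0.11 without E15.5 replicate 1.

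Of the 5 genes of export and breakdown, Cyp4f18, which oxidises leukotriene B4, met the criterion with a log2 fold change of -9.14 that came from E4.5 replicate 3 alone. That library held 318 FPKM of Cyp4f18, the other 5 at most 0.474 FPKM, and without it the value was -0.61 and the criterion was not met. Cyp4f14 (7.48 FPKM), Pla2g5 (8.79 FPKM) and Mgst2 (3.01 FPKM) were also high in that library only. Near labor, 0 of 4 tested genes of this role met the criterion. Of 4 tested genes of the interleukin signal that induces Alox15 in macrophages, Il13ra1, a receptor chain for interleukin-13, was higher at E0.5, with a log2 fold change of 1.04 (standard error 0.18, edgeR adjusted p = 0.0551, or 0.0255 without E4.5 replicate 3). Il4ra was close behind at 0.96 (standard error 0.20, edgeR adjusted p = 0.0801, or 0.0556 without E4.5 replicate 3), below the fold minimum. Il4 went the other way, at 0.319, 0.209 and 0.354 FPKM at E0.5 and at 0.411, 0.649 and 0.477 FPKM at E4.5. The groups did not overlap for Il4, but its log2 fold change of -0.74 (standard error 0.49) did not meet the criterion. Stat6 overlapped, at 0.27 (standard error 0.18), and Il13 was below the filter. At the labor stage, 0 of 4 tested genes of this role met the criterion. Of the cofactor genes Cotl1 and Gpx4, 0 of 2 met it in either table.

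**Figure D5:**
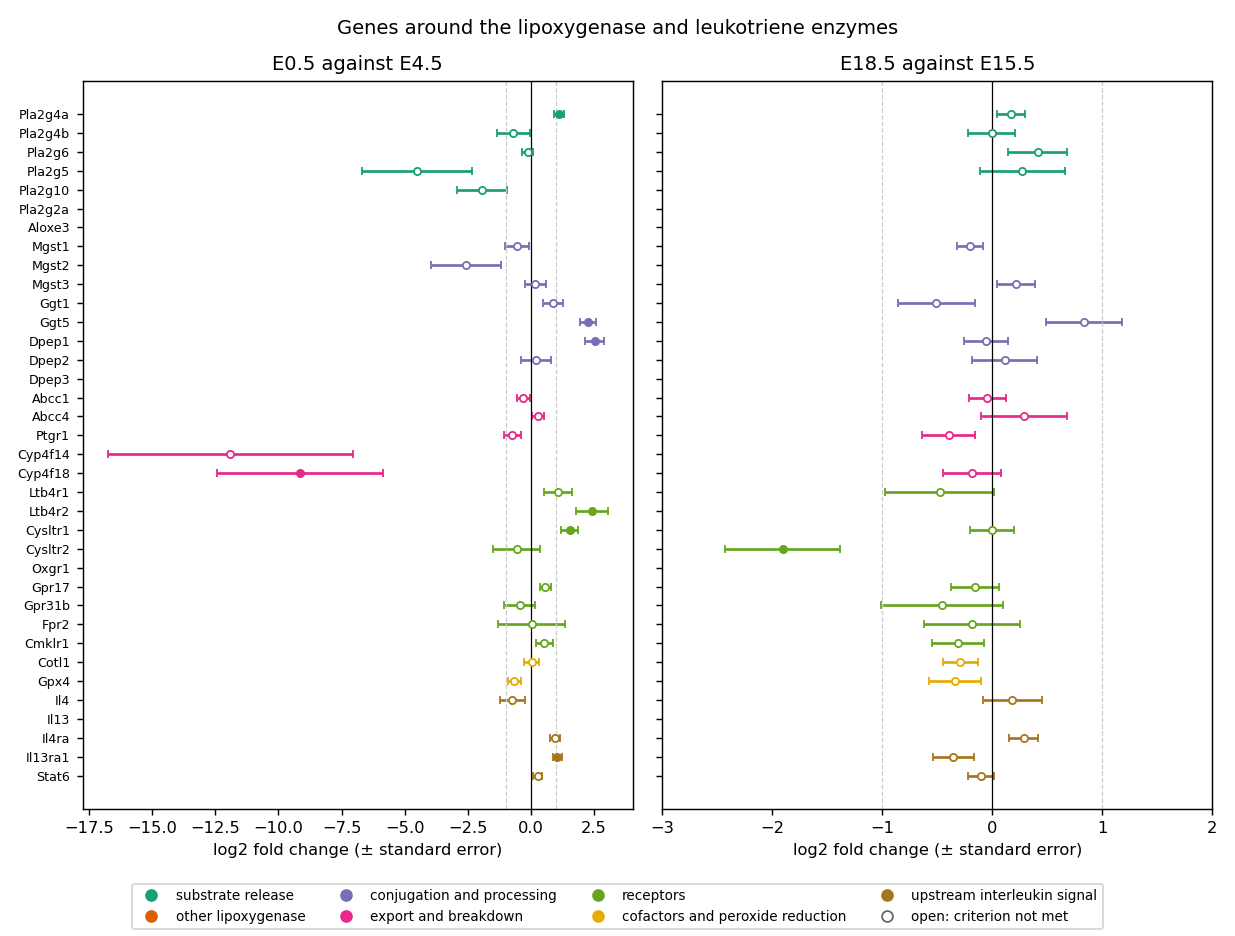
Log2 fold change with its standard error of the tested genes among the 36 around the lipoxygenase and leukotriene enzymes, coloured by role, E0.5 against E4.5 (left) and E18.5 against E15.5 (right); the horizontal scales differ, dashed lines mark a change of 1 and open symbols did not meet the criterion. Ggt5 (2.27) and Dpep1 (2.53) stand to the right in the left panel, the values of Cyp4f14 and Cyp4f18 far to the left rest on E4.5 replicate 3, and Cysltr2 (-1.90) stands apart in the right panel.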

How the data were processed

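RNA of whole uteri from 12 mice was sequenced by the authors. The study's methods give Cutadapt, Bowtie2, Tophat2, StringTie and Ballgown; the submitters' notes list Bowtie 0.12.2, HISAT2 2.0 and StringTie 1.3.0 and the builds mm8 and mm10. The sources differ on poly(A) selection or rRNA depletion, and strand-specific counting is not given in the sources used here. FPKM values were deposited by the authors, 1 gene table per stage, assembled separately. The counts deposited by the authors in the first table are whole numbers. Its FPKM of 0.0001 stands for 0 and was set to 0. Rows without a gene name hold 1.02% to 1.86% of a library's counts and were kept as assembled loci.

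All rows whose mean reached 0.1 FPKM (59732 and 30928) were fitted together, with edgeR 4.0.16 quasi-likelihood (TMM) on counts and limma 3.58.1 (trend) on log2(FPKM + 0.1), 3 against 3 libraries per stage, each p Benjamini-Hochberg adjusted over its table. The scripts were tested on simulated data. Members, gene lists and markers were chosen with earlier results of these data known. The genes named outside the members are those of the 36-gene pathway list that met the criterion and genes read against them, the 5 rows per table most correlated with Alox15, and cell markers from the lists, named after their values were seen. The p-values measure the spread between these 3 mice per day. An exact permutation test of 3 against 3 cannot give a p below 0.1, so none was used. Replicate pairs of the first table differed beyond sampling noise, which the second table, without counts, does not allow to be tested. Settings varied were the tool, scaling, filter, pseudocount, adjusted p, replicate block and each library left out. Sequences were not used here.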

Additional observations from a re-analysis of the deposited data

Results flagged for a closer look

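Alox5 differed in opposite directions in the comparisons, with a log2 fold change of 1.07 at E0.5 relative to E4.5 and of -0.65 at E18.5 relative to E15.5, and in each the groups did not overlap. The tables were made separately, and the difference between them was not tested.

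A row named Alox12e without an Ensembl transcript, outside the row used for the gene, had a mean of 1.21 FPKM at E0.5. It was at 2.14, 0.966 and 0.537 FPKM at E0.5 and at 0.190, 0.153 and 0 FPKM at E4.5, from 55, 22 and 15 counts against 5, 4 and 0. Its log2 fold change was 3.29 (standard error 1.34), and 2.72 without E4.5 replicate 3, where the criterion was not met, and it lies just past the 3′ end of Alox12e on a strand the table does not give.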

How the results depend on the processing

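With all rows of a table, 4396 rather than 7284 rows met the criterion at E0.5 with a minimum mean of 1 FPKM and 719 with an adjusted p (edgeR); of the 9 genes 1 did with an adjusted p, and of the 36 pathway genes 4 did with limma on log2(FPKM + 0.1) and 2 with an adjusted p. At E18.5, 799 rather than 1870 rows met it with a minimum of 1 FPKM, 514 with a pseudocount of 1 and 8 with an adjusted p (limma). There 0 of the 9 genes met it with a minimum of 1 FPKM, a pseudocount of 1 or an adjusted p (2 with an unadjusted p), and of the pathway genes 2 did with no filter and 0 with an adjusted p (1 with an unadjusted p). Leaving out 1 library gave 6000 to 8442 rows, 3 to 6 of the 9 genes (3 without E4.5 replicate 2) and 5 to 9 pathway genes at E0.5, and 1537 to 2395 rows, 1 to 2 of the 9 genes and 1 to 2 pathway genes at E18.5. For Lta4h at E0.5 the values so obtained ran from -0.045 to 0.23, negative without E0.5 replicate 3 (-0.045) or E4.5 replicate 3 (-0.028), and the sign turned also for Alox5 at E0.5 relative to macrophage markers (-0.22), a setting added after the data were seen. The causes of these changes were not tested. Alox5ap met the criterion with an unadjusted p at E0.5 in all 14 settings in which it was tested. With DESeq2, adjusted p-values under 0.05 were also reached by Alox12e, Alox5, Ltc4s, Pla2g4a, Cysltr1, Ltb4r2 and Il13ra1. With the replicate number as a block, 6234 rows met it at E0.5 and 1853 at E18.5, and 1 of the 9 genes did at E18.5, where Alox15 was lost, Alox8 was lost at E0.5, and Alox5ap, Ggt5 and Dpep1 were then not past the adjusted threshold at E0.5 (edgeR). Libraries with the same number did not deviate together over many rows (correlations from -0.06 to 0.02 in both tables). Such correlations cannot show whether mice with the same number were handled together. The depth of each library of the second table was not used here, and in the first, counts under 100 in a library limit Alox8, Alox12b, and Ltc4s and Alox5 at E4.5.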
